A study of Mus musculus with 2 samples.

Results

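The cells described here are 344 fibroblasts of mouse 4T1 mammary tumours in which myofibroblast marker transcripts outnumbered adventitial fibroblast ones. They were found among 1052 fibroblasts, which were themselves found among 28854 cells that passed a filter on cell quality (at least 200 genes and at most 20% mitochondrial transcripts). A fibroblast was a cell with at least 100 transcripts of the collagen genes Col1a1 and Col3a1 per 10000 and under 10 of the keratin genes Krt8 and Krt18 per 10000. It also had to hold no transcript of the leukocyte gene Ptprc and at most 1 of the mural cell genes Rgs5, Kcnj8 and Abcc9. A transcript here means a unique molecular identifier (UMI), the tag that marks 1 captured RNA molecule. A fibroblast was called a myofibroblast when its summed UMIs of Acta2, Tagln, Lrrc15, Crabp1 and Grem1 exceeded those of Pi16, Dpt, Clec3b, Sfrp2 and Col14a1. The members were thus chosen by measured UMIs of these marker genes, and what those genes show is a description. The other 687 fibroblasts with the higher adventitial sum, called opposite fibroblasts below, are the comparison, and 21 fibroblasts with equal sums belong to neither.

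Tumours came from 4T1 cells, a triple-negative breast cancer line, in mice of the BALB/c strain, and were profiled by 10x Genomics droplet single-cell RNA sequencing. Mice of the AptCD4-LNT group received AptCD4-LNT, which the labels dose by cell number, in 3 doses at 3-day steps of 5, 4 and then 3 units of 1000000 cells. Mice of the Untreated group received PBS. By a protocol text that both libraries share, each library is a mixture of 3 tumour samples. The AptCD4-LNT library was taken at day 9, and no other harvest time is named for the Untreated one. The labels do not give the age of the mice or say what AptCD4-LNT is made of beyond its name. With 1 library per group no difference could be tested against variation between mice, so no p-value is given. Every interval is an exact 95% interval that covers counting error only.

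Myofibroblasts are fibroblasts that have assembled smooth muscle-type actin filaments and pull on the matrix they secrete. Transforming growth factor beta (TGF-beta) and tension on the cell are the classical inducers of that state, in wounds as in tumours, and serum response factor bound to CArG boxes drives many of its contractile genes. In carcinomas, fibroblasts with LRRC15 and alpha-smooth muscle actin form the matrix-producing, TGF-beta-driven end of a range whose other end is inflammatory or adventitial. Interferons act on the same cells through STAT and IRF factors, which raise antigen presentation genes and guanylate-binding proteins.

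Promoter sequences are shown for genes of the contractile group, which set the myofibroblasts apart, and of the interferon group, which set the libraries apart. They come from RefSeq (build GRCm38.p6, whereas the counts were made on GRCm39) and run from 250 bases before to 50 bases after the annotated start, 5′ to 3′ on the strand of the gene. Capitals mark the match. For Myl9, the regulatory light chain of myosin (chr2:156775214-156775513, plus strand), it is a CArG box that begins 161 bases before the start. For the other 3 genes it is the core of the interferon-stimulated response element, spelled GAAA, any 2 bases and GAAA. It begins 213 bases before the start of Cxcl10, a T cell chemokine (chr5:92348840-92349139, minus strand). In Gbp2, a guanylate-binding protein (chr3:142620413-142620712, plus strand), it lies 59 bases before the start and reads on the other strand, so the capitals show its complement. In Igtp, an interferon-induced GTPase (chr11:58199306-58199605, plus strand), it begins 34 bases before the start.
Myl9: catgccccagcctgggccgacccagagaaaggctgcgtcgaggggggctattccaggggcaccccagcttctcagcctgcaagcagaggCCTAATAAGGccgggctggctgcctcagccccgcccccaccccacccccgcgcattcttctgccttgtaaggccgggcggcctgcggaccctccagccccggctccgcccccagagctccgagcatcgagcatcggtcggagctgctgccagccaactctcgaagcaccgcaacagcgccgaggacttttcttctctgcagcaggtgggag
Cxcl10: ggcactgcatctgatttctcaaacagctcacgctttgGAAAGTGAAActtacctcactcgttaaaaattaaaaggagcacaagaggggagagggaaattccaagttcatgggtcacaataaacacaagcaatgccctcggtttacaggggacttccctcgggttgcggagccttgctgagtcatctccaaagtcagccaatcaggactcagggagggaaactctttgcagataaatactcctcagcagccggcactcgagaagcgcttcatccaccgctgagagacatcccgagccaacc
Gbp2: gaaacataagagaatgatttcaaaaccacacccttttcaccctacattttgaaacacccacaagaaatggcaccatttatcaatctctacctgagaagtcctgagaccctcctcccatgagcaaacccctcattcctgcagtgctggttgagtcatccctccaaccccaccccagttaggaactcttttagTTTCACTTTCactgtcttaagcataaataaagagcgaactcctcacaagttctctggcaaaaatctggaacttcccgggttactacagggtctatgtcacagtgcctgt
Igtp: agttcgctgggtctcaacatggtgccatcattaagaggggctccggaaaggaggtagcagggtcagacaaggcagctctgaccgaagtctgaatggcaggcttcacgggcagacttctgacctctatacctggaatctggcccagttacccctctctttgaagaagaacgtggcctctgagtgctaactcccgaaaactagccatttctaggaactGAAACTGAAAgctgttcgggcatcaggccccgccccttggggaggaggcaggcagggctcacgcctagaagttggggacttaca

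The table held a promoter for 16 of 19 contractile genes, counting Acta2 and Tagln, and a CArG box on either strand lay in 5 of them (31.2%), namely Myl9, Cnn2, Myl6, Vcl and Actg1. Over all 27025 genes of the table the share was 1.81%. The interferon core on either strand lay in 11 of 16 matched interferon genes (68.8%) and in 2 of 9 matched MHC class I genes (H2-T23 and B2m), against 3.99% of all genes. TTCNNNGAA, the STAT motif, lay in 4 of 16 interferon genes (25%, Igtp among them) and in 9.55% of all genes. None of the matches printed above overlapped another of the 3 motifs. A match describes the letters of the window and does not show that a factor was bound.

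The AptCD4-LNT library held 8931 barcodes and 98968100 UMIs, the Untreated library 20040 barcodes and 131295224 UMIs, with a median of 8612 and 4640.5 UMIs per barcode. Myofibroblasts were 141 AptCD4-LNT cells with 2602078 UMIs and 203 Untreated cells with 1582888 UMIs. Their median was 17189 UMIs (1119 to 53421) in the AptCD4-LNT library and 6526 (741 to 35312) in the Untreated library, and that of the opposite fibroblasts 9706.5 and 5237. Of the barcode sequences, 42 occurred in both libraries, and 0 of these were a myofibroblast in both. Scrublet, run per library, marked 200 and 1490 cells as doublets, of which 1 and 11 were myofibroblasts. They were kept, and results without them are in the closing section.

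The marker genes chose the cells, so their levels are a description only. Levels are given as CPM, the share of a gene in all UMIs of a set of cells, scaled to 1000000. Acta2, alpha-smooth muscle actin, stood at 2533 CPM in AptCD4-LNT and 2705 CPM in Untreated myofibroblasts, and at 84.5 and 17 CPM in the opposite fibroblasts. Tagln, the actin-bundling protein transgelin, stood at 3326 and 3913 CPM, against 67.2 and 22.2. Lrrc15, a TGF-beta-induced membrane protein, stood at 628 and 501 CPM, against 140 and 44.4, the least separated of the 5. Crabp1, which binds retinoic acid in the cytosol, stood at 877 and 363 CPM, against 17.5 and 1.48. Grem1, a secreted antagonist of bone morphogenetic proteins, stood at 557 and 686 CPM, against 1.27 and 1.48. Of the 5 only Crabp1 was past 1.5-fold between the libraries, with a log2 ratio of AptCD4-LNT over Untreated of 1.27 (1.14 to 1.41).

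Acta2 and Tagln were spread over most of the myofibroblasts and Crabp1 and Grem1 over fewer. Since the libraries differ in depth, each cell was thinned to 2000 UMIs, which left out 5 and 17 shallower myofibroblasts and 41 and 45 opposite fibroblasts. After thinning, 136 AptCD4-LNT and 186 Untreated myofibroblasts were left, and Acta2 was seen in 72.8% and 86.0% of them, Tagln in 77.2% and 86.0%, and Lrrc15 in 67.6% and 60.8%. Crabp1 was seen in 47.1% and 30.1%, and Grem1 in 38.2% and 40.9%. In thinned opposite fibroblasts Acta2 was seen in 8.03% and 3.68%, Lrrc15 in 20% and 7.89%, and Grem1 in 0.487% (2 of 411 cells) and 0% (0 of 190, upper limit 1.92%). Without thinning Acta2 was seen in 85.8% and 89.2% of myofibroblasts and Crabp1 in 73.0% and 39.9%. Of the 5 markers, 13 AptCD4-LNT (9.56%) and 20 Untreated (10.8%) thinned myofibroblasts held all, and 10 (7.35%) and 17 (9.14%) held a single one.

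Adventitial markers were higher in the AptCD4-LNT than in the Untreated myofibroblasts. Sfrp2, a secreted modulator of Wnt signalling, stood at 296 against 22.1 CPM, which is 3.74 (3.25 to 4.27) on the log2 scale, and after thinning it was seen in 33.8% against 3.76% of the myofibroblasts. The extracellular matrix genes Dpt (92.2 against 34.1 CPM) and Col14a1 (154 against 70.8) and the serine protease inhibitor-like gene Pi16 (55.3 against 24.6) were higher too. Clec3b, tetranectin, stood at 11.9 against 7.58 CPM, with an interval of the log2 ratio of -0.35 to 1.75. In the opposite fibroblasts Sfrp2 stood at 2057 and 1994 CPM, so the libraries did not differ there past 1.5-fold. The myofibroblasts of the AptCD4-LNT library held a median of 7 adventitial UMIs and those of the Untreated library 0, and 12.8% and 60.1% of them held none. These counts are unthinned, in cells with medians of 17189 and 6526 UMIs, and the opposite fibroblasts, which are rich in these transcripts, were a 4.35-fold higher share of cells in the AptCD4-LNT library. The part of either in these values was not tested.

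Most myofibroblasts lay far from the dividing line. The marker sums differed by more than 20 UMIs in 115 AptCD4-LNT (81.6%) and 146 Untreated (71.9%) of them, and by 1 to 5 UMIs in 9 (6.38%) and 28 (13.8%). Just inside the line, 2 AptCD4-LNT and 7 Untreated cells had a myofibroblast sum higher by 1 UMI. Just outside it, 7 and 9 had an adventitial sum higher by 1 UMI, and 1 and 20 had equal sums. In the equal cells both sums had a median of 0 UMIs.

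**Figure D1:**
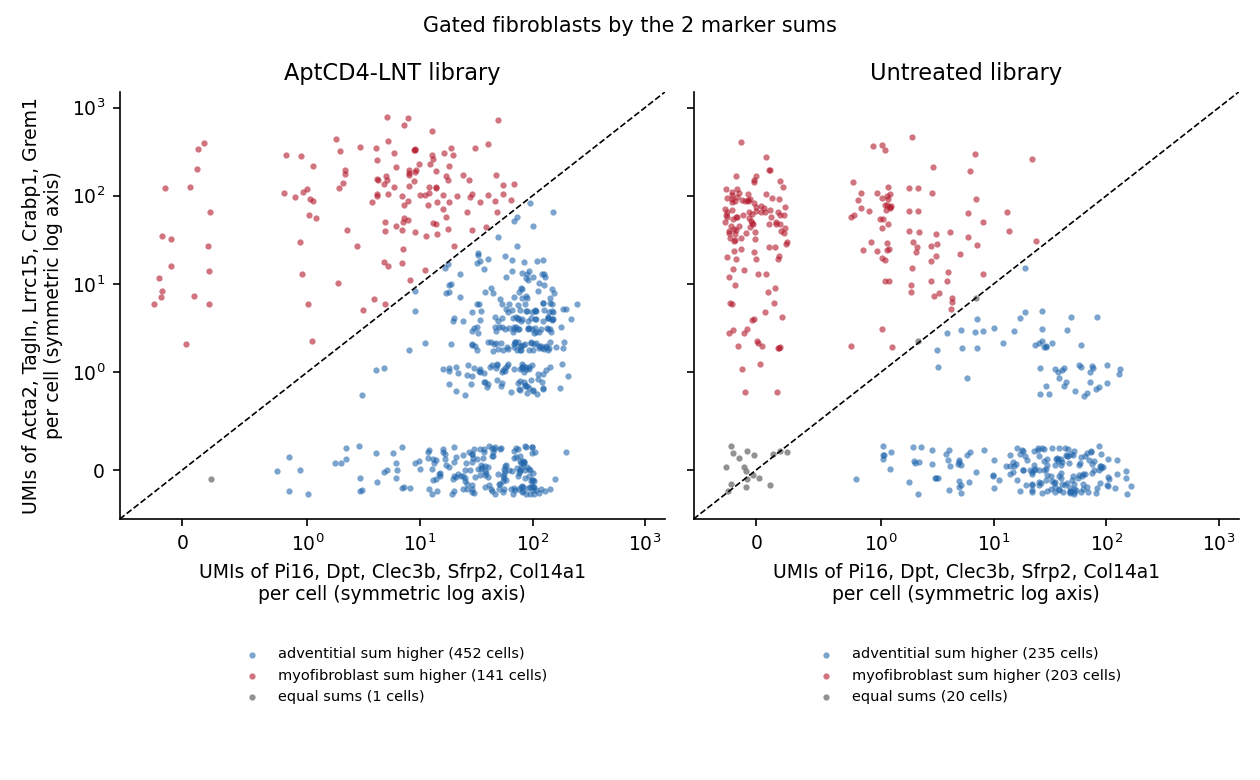
Each point is a fibroblast of the AptCD4-LNT library (left) or the Untreated library (right), placed by its summed UMIs of the 5 adventitial markers (x) and of the 5 myofibroblast markers (y), both on symmetric log axes with a small random offset. Points above the dashed line are the 141 and 203 myofibroblasts, and 18 and 122 of these hold no adventitial UMI, at unequal depth.

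The gate itself removed cells on the myofibroblast side. Of 874 AptCD4-LNT and 706 Untreated cells past the collagen threshold, the keratin limit took out 47 and 131, of which 7 and 41 had the higher myofibroblast sum. The limit on mural genes took out 174 and 62, of which 22 and 19 had the higher myofibroblast sum, and the Ptprc limit 59 and 55, of which 13 and 27 did. The myofibroblasts held 61.2% of all Acta2 UMIs of the AptCD4-LNT library and 44.3% of those of the Untreated library, and 73.2% and 39.0% of the Crabp1 UMIs.

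Myofibroblasts were a smaller share of the fibroblasts in the AptCD4-LNT library and a larger share of all its cells. They were 141 of 594 fibroblasts, or 23.7% (20.4 to 27.4%), against 203 of 458, or 44.3% (39.7 to 49.0%), a share 1.87-fold (1.5 to 2.33) higher in the Untreated library. Of all cells they were 1.59% (1.34 to 1.88%) against 1.01% (0.881 to 1.16%), which is 1.57-fold (1.26 to 1.95) higher in the AptCD4-LNT library. The opposite fibroblasts were 5.11% against 1.17% of all cells, 4.35-fold (3.70 to 5.11) higher in the AptCD4-LNT library. Splitting the fibroblasts on Lrrc15, Crabp1 and Grem1 against Pi16, Clec3b and Dpt alone gave 22.9% against 40.4% of fibroblasts. Without any cell that held a Krt8 or Krt18 UMI the share of all cells was 0.802% against 0.635%, and myofibroblasts were 71 of 341 against 127 of 308 fibroblasts. Shares depend on how the mixed tumours released their cells, and with 1 library per group this and the treatment cannot be told apart.

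Acta2 and Tagln varied together across thinned cells, with a Spearman correlation of 0.58 in the AptCD4-LNT and 0.68 in the Untreated library, and so did Crabp1 and Grem1, at 0.40 and 0.38. Between the pairs it was -0.39 and -0.20 for Acta2 with Grem1, -0.24 and -0.27 for Acta2 with Crabp1, -0.21 and -0.20 for Tagln with Crabp1, and -0.19 and 0.017 for Tagln with Grem1. The cells were chosen on the sum of these markers, so nothing is read from the sign of these correlations. The values describe 136 and 186 cells of 1 library each, in sparse counts of equal depth. Acta2 and Tagln outnumbered the other 3 markers in 94 (66.7%) AptCD4-LNT and 161 (79.3%) Untreated cells, called contractile-led here. The other 3 markers led in 45 (31.9%) and 37 (18.2%), and 2 and 5 cells were tied. Depth differed between these sets, with a median of 19369.5 against 14188 UMIs in the AptCD4-LNT library and 6686 against 6062 in the Untreated library.

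Timp1 and Timp3 were higher in the contractile-led cells and Mmp3, Mmp10 and Mmp13 in the other cells. Timp3, an inhibitor of metalloproteinases bound to the matrix, stood at 749 CPM in contractile-led against 111 CPM in the other cells of the AptCD4-LNT library, and at 759 against 48.1 CPM in the Untreated library. Timp1 was at 3302 against 780 CPM and at 2542 against 603 CPM, log2 ratios of 2.08 and 2.08. The collagenase Mmp13 ran the opposite way, at 21.0 against 1244 CPM and at 25.4 against 590 CPM, log2 ratios of -5.89 (-6.38 to -5.44) and -4.54 (-5.13 to -3.99). Mmp3, stromelysin, had log2 ratios of -2.22 and -5.19, and Mmp10, its close relative, of -4.01 and -6.34. Not every gene of these families followed: the inhibitor Timp2 had -0.77 and -0.08, and the protease Adam12 -0.06 and -0.09. In this order these are contractile-led over other cells, first in the AptCD4-LNT and then in the Untreated library. A single cell gave 32.7% of the Mmp13 UMIs of the AptCD4-LNT myofibroblasts and 50.6% of those of the Untreated ones. Both sets were cut from the same cells on markers, so these contrasts carry no test.

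Other genes followed the same division in both libraries. Thbs1, thrombospondin 1, which releases TGF-beta from its latent form, had log2 ratios of 1.90 and 2.0. Ccn2, connective tissue growth factor, had 1.77 and 2.10, and Fst, the activin antagonist follistatin, 2.12 and 1.92. Among contractile genes Tpm2, beta-tropomyosin, had 1.67 and 1.59. On the side of Lrrc15, Crabp1 and Grem1 stood Col7a1, the anchoring fibril collagen (-2.13 and -2.40), Wnt5a, a non-canonical Wnt ligand (-1.08 and -1.37), and Stra6, the retinol importer (-1.11 and -0.99). Serpine2, an inhibitor of thrombin and plasminogen activators, had -2.88 and -1.75, and the small proteoglycan Lum -1.51 and -1.32. Top2a, a DNA topoisomerase of dividing cells, was at 104 against 40.5 CPM (1.36) and at 73.1 against 4.37 CPM, the last from 1 UMI, with a log2 ratio of 4.06 (1.55 to 9.38). Pcna, the sliding clamp of DNA replication, had 0.70 (0.11 to 1.35) and 0.56 (-0.50 to 1.83). Lcn2, an epithelial marker of the list used here, was also higher there, at 142 against 18.7 CPM and 415 against 30.6 CPM, and its part in the division was not tested.

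**Figure D2:**
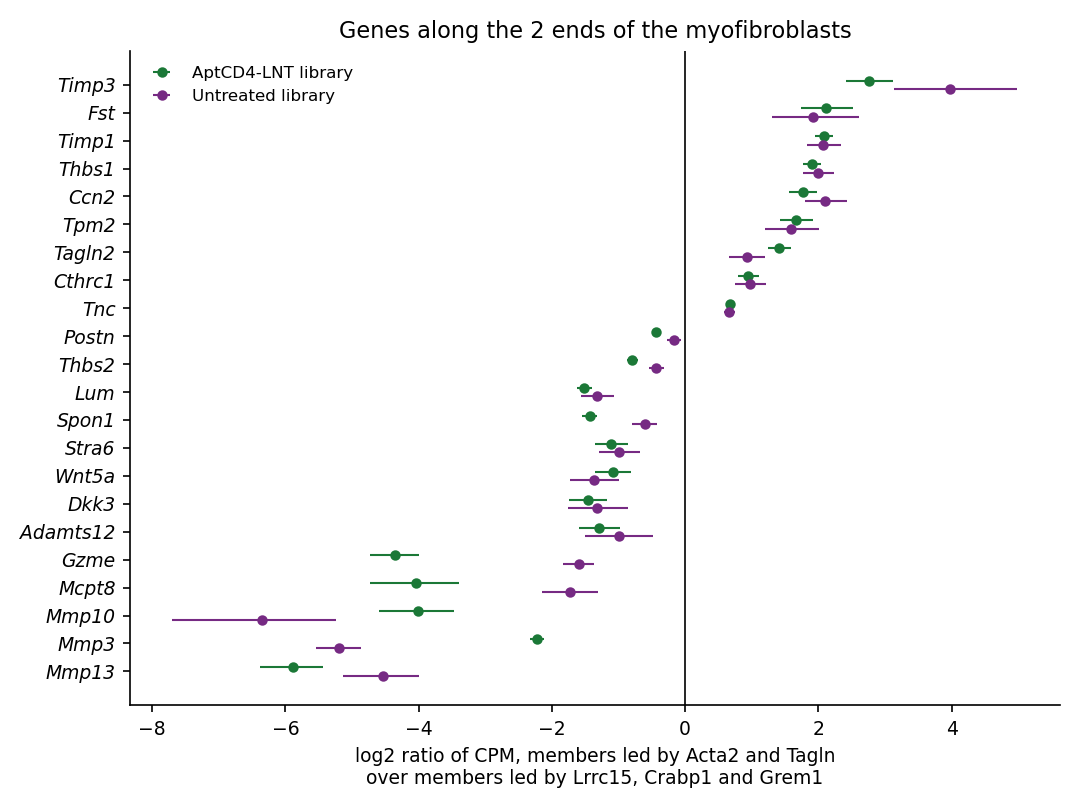
Log2 ratio of CPM in myofibroblasts led by Acta2 and Tagln over those led by Lrrc15, Crabp1 and Grem1 (x axis) for 22 genes (y axis), in the AptCD4-LNT library (green) and the Untreated library (purple), with bars for the 95% counting interval. Timp3, Fst and Timp1 lie to the right and Mmp13, Mmp3 and Mmp10 to the left in both libraries.

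Against the opposite fibroblasts of their own library, 605 of 6597 genes with at least 50 UMIs in each library (9.17%) were past 1.5-fold higher in the myofibroblasts of both libraries. Another 569 (8.63%) were past 1.5-fold lower in both. The 10 markers of the split and Col1a1 and Col3a1 are left out of these counts, and since the rule chose the cells from the same UMIs the counts are a description with no test. The median log2 ratio of all these genes was 0.03 in the AptCD4-LNT and 0.09 in the Untreated library. In this comparison ratios are myofibroblast over opposite, with the AptCD4-LNT value first. The counts of each list stand against these shares of 9.17% higher and 8.63% lower.

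Contractile genes were higher as a group: 14 of 17 were past 1.5-fold in both libraries and 0 were lower, with a list median of 0.94 and 1.5. Myl9 stood at 198 and 269 CPM in myofibroblasts against 5.28 and 6.66 CPM, log2 ratios of 5.22 (4.65 to 5.87) and 5.34 (4.40 to 6.48). Cnn1, the smooth muscle protein calponin 1, stood at 90.7 and 140 CPM, against 1.27 CPM in the AptCD4-LNT and 0 in the Untreated opposite fibroblasts. Its log2 ratios were 6.16 (5.02 to 7.62) and, with 3 UMIs as the floor in place of 0, 5.98 (lower limit 5.67). Tpm1 and Tpm2, the tropomyosins that stabilise actin filaments, had 2.51 and 2.96, and 3.40 and 3.80. Tagln2, a relative of Tagln not restricted to muscle-type cells, had only 0.27 and 0.31 and was among the 3 genes not past 1.5-fold in both libraries. The cytoplasmic actin Actb was at 8349 and 13908 CPM against 4976 and 5661 CPM.

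Markers of smooth muscle cells and pericytes, which share contractile genes with myofibroblasts, were present at low level. Summed over 9 smooth muscle markers, myofibroblasts held 213 CPM in the AptCD4-LNT and 409 CPM in the Untreated library, against 46.1 and 55.5 CPM in the opposite fibroblasts. All 9 had a UMI in the Untreated myofibroblasts and 8 in the AptCD4-LNT ones, where Sorbs2 was at 0, and the highest were Cnn1 at 90.7 CPM and Actg2 at 152 CPM. The 10 pericyte markers summed to 224 and 370 CPM, of which Ndufa4l2 made up 154 and 282, and Higd1b was at 0 in every group. In the opposite fibroblasts they summed to 199 and 57.7 CPM, with Ndufa4l2 at 161 and 18.5 CPM. The pericyte genes Rgs5, Kcnj8 and Abcc9 were held low by the rule.

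Of 16 collagens 5 were past 1.5-fold higher in both libraries (9.17% of all genes were) and 0 lower (8.63% of all genes), with medians of 0.38 and -0.01. Col7a1 was at 299 and 275 CPM against 8.03 and 3.70 CPM, log2 ratios of 5.22 (4.75 to 5.73) and 6.22 (4.99 to 7.85). Col12a1, which coats collagen fibrils under tension, was at 3412 and 2516 CPM against 893 and 571, log2 ratios of 1.93 and 2.14. Col8a1, a short-chain collagen, had 1.38 and 2.0, Col15a1 1.78 and 1.87, and Col11a1, a fibril-nucleating collagen, 2.62 and 2.08. Col1a2, the second chain of collagen I, was lower at -0.47 and -0.72. Enzymes that process and cross-link collagen were 3 of 16 higher and 4 lower in both libraries. Among them Loxl3, a lysyl oxidase, had 0.99 and 1.54, and Adamts2, the procollagen N-peptidase, -0.94 and -1.02.

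Of 21 matricellular and glycoprotein genes 7 were higher and 3 lower in both libraries (9.17% and 8.63% of all genes were). Spp1, osteopontin, was at 10114 and 21603 CPM against 696 and 1365 CPM, log2 ratios of 3.86 (3.81 to 3.91) and 3.98 (3.92 to 4.05). Tnc, the tension-induced glycoprotein tenascin C, was at 6358 and 8245 CPM against 880 and 1020 CPM, ratios of 2.85 and 3.02. Spon1, F-spondin, had 3.45 and 2.25, Thbs1 1.51 and 1.83, and Thbs2 1.28 and 1.5. Fbn1, fibrillin 1 of elastic microfibrils, was lower at -1.07 and -1.13, and Vcan, the proteoglycan versican, at -1.18 and -1.03. Postn, periostin, often used as a myofibroblast marker, had 0.93 in the AptCD4-LNT but -0.11 in the Untreated library, and Cthrc1 0.30 and 0.07. Fap, the protease that gives activated fibroblasts their name, was at 65.3 and 65.1 CPM against 69.1 and 118 CPM.

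In the TGF-beta list ligands were higher and 2 receptors lower. Of its 22 genes 7 were higher and 4 lower in both libraries (9.17% and 8.63% of all genes were), with medians of 0.53 and 0.34. Inhba, the activin A subunit, was at 1892 and 1476 CPM against 114 and 53.3 CPM, log2 ratios of 4.05 (3.92 to 4.18) and 4.79 (4.45 to 5.15). The ligands Tgfb1 (2.16 and 2.39), Tgfb2 (1.73 and 2.64) and Tgfb3 (1.71 and 1.14) were all higher, as was Ltbp2, a matrix protein of the latent TGF-beta binding family (2.75 and 3.10). Pmepa1, a feedback inhibitor that TGF-beta induces, had 1.28 and 1.45. The signalling receptor Tgfbr2 was lower at -1.90 and -1.81, and the co-receptor Tgfbr3, betaglycan, at -2.82 and -3.63.

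Receptors and secreted signals of other pathways divided the same fibroblasts. Pdgfrb, the platelet-derived growth factor receptor typical of contractile stroma, had log2 ratios of 2.0 and 1.97, and Pdgfra, its sister receptor, -1.29 and -1.35. Of 14 growth factor and receptor genes 5 were higher and 4 lower in both libraries. For this and the next lists, 9.17% of all genes were higher and 8.63% lower. The ligand Pdgfa had 2.03 and 2.94 and Hbegf, a ligand of the epidermal growth factor receptor, 2.16 and 3.32. Igf1 was lower, at -1.18 and -3.53. Wnt5a had 4.51 (4.04 to 5.02) and 4.20 (3.43 to 5.09), and the Wnt antagonist Sfrp4 -6.18 (-6.88 to -5.57) and -8.55 (-10.83 to -7.00), the second from 3 UMIs in the Untreated myofibroblasts. In the retinoid list 2 of 8 genes were higher and 1 lower, with Stra6 at 5.30 and 4.28. Hypoxia and glycolysis genes were 9 of 14 higher and 1 lower, with medians of 0.84 and 1.0. Among them Vegfa, the main angiogenic factor, was at 499 and 453 CPM against 94.5 and 44.4 CPM.

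Adventitial genes that the rule did not use were lower in the myofibroblasts, 17 of 22 in both libraries and 0 higher, with medians of -1.93 and -2.13. Cd34, a sialomucin of progenitor-like fibroblasts, was at 25.4 and 14.5 CPM against 276 and 277 CPM. Efemp1, an elastic fibre protein, had -4.92 (-5.44 to -4.45) and -7.39 (-10.44 to -5.53), the second from 2 UMIs in the Untreated myofibroblasts, and Tnxb, tenascin X, -4.58 and -5.02. Mfap5, a microfibril protein, was at 1666 and 1590 CPM against 1718 and 2328 CPM and was not past 1.5-fold in either library. Of 22 genes of inflammatory fibroblasts 14 were lower and 4 higher, with medians of -0.96 and -1.62. Il6 was at 34.6 and 24.0 CPM against 211 and 138 CPM, the lymphocyte attractant Cxcl12 at 56.1 and 56.9 against 566 and 318 CPM, and complement C3 had -3.03 and -4.14. The 4 that were higher were Cxcl14, an epithelial-type chemokine (1.07 and 2.26), Il11, a TGF-beta-induced cytokine (2.81 and 6.57), Lif (1.58 and 3.77, the latter with an interval of 2.14 to 6.10) and the hyaluronan synthase Has2 (1.39 and 1.61). The opposite Untreated fibroblasts held 5 Il11 and 3 Lif UMIs.

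**Figure D3:**
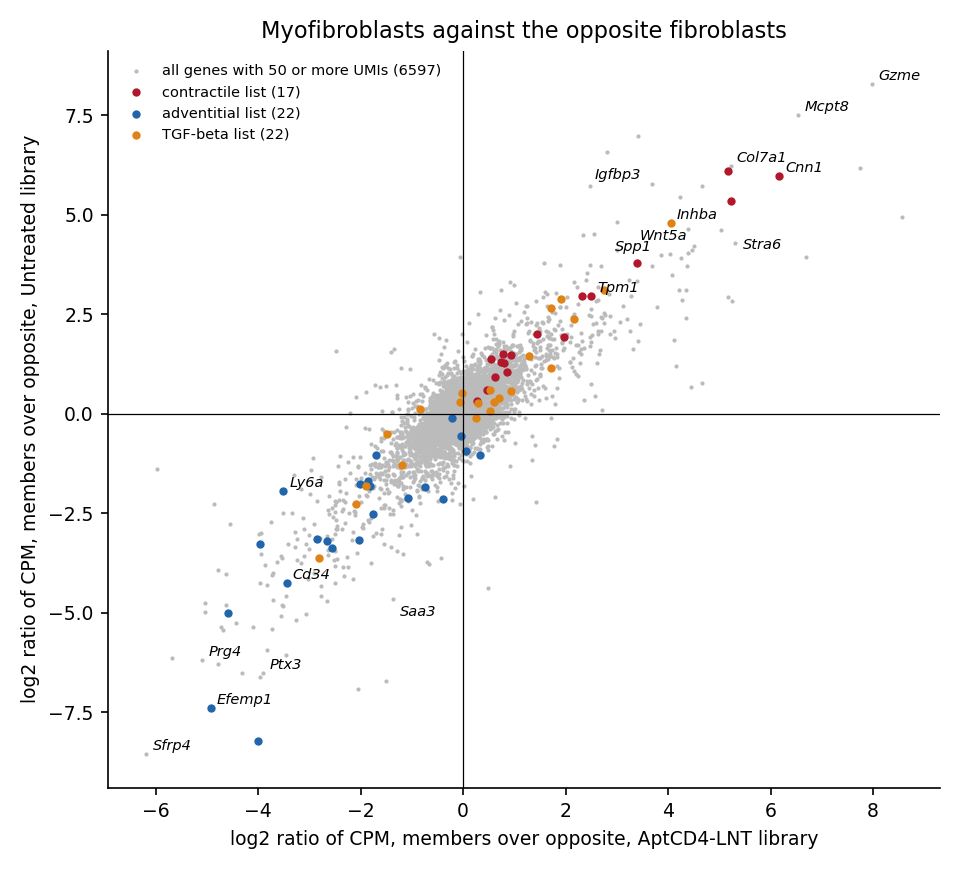
Log2 ratio of CPM, myofibroblasts over opposite fibroblasts, in the AptCD4-LNT library (x) and the Untreated library (y) for 6597 genes (grey), with 17 contractile (red), 22 adventitial (blue) and 22 TGF-beta genes (orange). Genes of the contractile list lie to the upper right, up to Cnn1, and most adventitial genes to the lower left.

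Outside the lists the highest ratios belonged to genes seldom named with fibroblasts. Gzme, a granzyme better known from lymphocytes and decidua, was at 213 and 457 CPM in myofibroblasts against 0.845 CPM (4 UMIs) and 1.48 CPM (2 UMIs), log2 ratios of 7.98 (6.61 to 9.86) and 8.27 (6.41 to 11.32). Its relatives in the granzyme cluster are close in sequence, so which of them gave the reads is uncertain. Mcpt8, a basophil and mast cell protease gene, lay at 58.8 and 134 CPM against 0 and 0.740 CPM. Its log2 ratio was 6.53 (lower limit 6.22) at the floor of 3 UMIs in the AptCD4-LNT library and 7.50 (5.01 to 12.81) in the Untreated one. A single cell gave 62.3% of the Gzme UMIs and 62.1% of the Mcpt8 UMIs of the AptCD4-LNT myofibroblasts. In the Untreated library the highest cell gave 8.01% and 8.02%, and after thinning Gzme was seen in 52 of 186 myofibroblasts (28.0%) and in 1 of 190 opposite fibroblasts (0.526%). The rule required Ptprc at 0, and 10 T and NK markers summed to 15 and 9.48 CPM in the myofibroblasts. The highest of them were Cd3e at 8.84 CPM in the AptCD4-LNT and Il7r at 3.79 CPM in the Untreated library. Nkg7, Cd8a, Cd3d and Cd4 were at 0 in both. The part of lymphocyte transcripts in the Gzme and Mcpt8 values was not tested. Igfbp3, a TGF-beta-responsive carrier of insulin-like growth factors, was at 1419 and 2354 CPM against 109 and 42.9 CPM. Rgs16, a regulator of G protein signalling (4.47 and 4.11), and Gng11, a G protein gamma subunit (3.24 and 3.35), followed. At the low end stood Prg4, the lubricating proteoglycan lubricin, at 10.8 and 3.16 CPM against 368 and 231 CPM, and Ccn3, at 5.38 and 3.16 CPM against 148 and 246 CPM.

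Between the libraries, 618 of 7622 genes with at least 50 UMIs (8.11%) were past 1.5-fold higher in the AptCD4-LNT myofibroblasts and 636 (8.34%) past 1.5-fold lower. In the opposite fibroblasts 1021 of 8722 genes (11.7%) were past 1.5-fold higher and 705 (8.08%) lower. Of 7370 genes compared in both cell types, 180 were higher in both, 175 lower in both, and 27 and 26 went opposite ways. The median log2 ratio of all genes was -0.02 in the myofibroblasts and 0.03 in the opposite fibroblasts. From here on ratios are AptCD4-LNT over Untreated. They compare 2 libraries and not 2 groups of mice.

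Among the 18 gene lists, which leave out the lists of other cell types' markers, the interferon list separated the libraries most fully of those over 10 genes. In the AptCD4-LNT myofibroblasts 16 of 16 were past 1.5-fold lower (8.34% of all genes were) with a median log2 ratio of -2.01. In the opposite fibroblasts 9 of 16 were, with a median of -0.86. Of the marker lists, 8 of 8 compared macrophage markers and 6 of 6 epithelial ones were also past 1.5-fold lower in AptCD4-LNT myofibroblasts. Their medians were -2.57 and -1.54. In the opposite fibroblasts 6 of 8 and 6 of 6 were lower, with medians of -1.51 and -1.51. Iigp1, an interferon-gamma-induced GTPase, was at 121 CPM in AptCD4-LNT and 972 CPM in Untreated myofibroblasts, a log2 ratio of -3.0 (-3.18 to -2.83), and at 22.8 and 84.3 CPM in the opposite fibroblasts. Per cell, its UMIs per 10000 had a median of 0 and an upper quartile of 0.575 in AptCD4-LNT myofibroblasts, and a median of 5.73 and an upper quartile of 15 in Untreated ones. After thinning it was seen in 12 of 136 (8.82%) and 114 of 186 (61.3%) myofibroblasts, and in 4.62% and 11.6% of opposite fibroblasts. The Untreated myofibroblasts thus stood apart from the other 3 sets of cells, which held it in a minority.

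Further interferon genes were lower in the AptCD4-LNT myofibroblasts as well, though the 4 sets of cells were not always ordered as for Iigp1. Cxcl9, a chemokine for T cells that interferon gamma induces, was at 48.8 and 488 CPM in the myofibroblasts, a log2 ratio of -3.32 (-3.60 to -3.05). Cxcl10 was at 7.69 and 102 CPM (-3.74, -4.48 to -3.06), Igtp at 20 and 134 CPM (-2.74) and Gbp2 at 19.6 and 94.1 CPM (-2.26), the genes whose promoters are printed above. In the opposite fibroblasts these genes were lower too, and Cxcl9 by more, at 6.34 and 115 CPM (-4.19). There Cxcl10 was at 12.3 and 56.2 CPM (-2.20), Gbp2 at 24.5 and 54.7 CPM (-1.16) and Igtp at 8.45 and 20.7 CPM (-1.29). The transcription factors Irf7 (12.3 and 33.5) and Irf1 (85.7 and 140) were lower, the last by the smallest margin of the list at -0.70. Outside the lists the lowest ratios also included interferon-induced GTPase genes, with Gbp4 at 10.8 and 149 CPM, Gbp2b at 22.3 and 165 CPM, Irgm2 at 8.84 and 56.2 CPM and Gm12250 at 4.23 and 79.0 CPM. These families have close paralogs, and reads could be split among them.

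Antigen presentation genes moved with them. Of 10 MHC class I pathway genes 9 were past 1.5-fold lower, with a median of -1.30, against 3 of 10 and -0.33 in the opposite fibroblasts. Of all genes 8.34% were lower in the myofibroblasts and 8.08% in the opposite fibroblasts. B2m, the light chain of every class I molecule, was at 813 and 2259 CPM in the myofibroblasts, a log2 ratio of -1.47 (-1.55 to -1.40), but at 725 and 832 CPM in the opposite fibroblasts (-0.20). Per 10000 UMIs the median myofibroblast held 5.62 B2m UMIs in the AptCD4-LNT and 23.4 in the Untreated library, the median opposite fibroblast 6.39 and 6.4. The class I heavy chain gene H2-K1 was at 878 and 2113 CPM (-1.27), with 786 and 923 CPM in the opposite fibroblasts. The peptide transporter gene Tap1 (26.1 and 107 CPM) and the immunoproteasome gene Psmb9 (21.1 and 148 CPM, -2.81) were lower as well. Only H2-T23, a non-classical class I gene, stayed within 1.5-fold, at 46.1 and 64.4 CPM. Whether the 2 cell types differ in this shift could not be tested with 1 library per group.

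MHC class II genes, which belong to professional antigen-presenting cells but can be induced in fibroblasts, were 4 of 4 lower in both cell types. Of all genes 8.34% and 8.08% were. Cd74, the invariant chain, was at 15 and 208 CPM in the myofibroblasts (-3.79) and at 35.7 and 191 CPM in the opposite fibroblasts. Macrophage transcripts ran in parallel: all 11 markers of the list had a UMI in the myofibroblasts of both libraries, and they summed to 110 and 478 CPM, against 265 and 442 CPM in the opposite fibroblasts. The 12 epithelial markers summed to 201 and 659 CPM, of which Lcn2 gave 111 and 364, and Krt5 was at 0. The 9 neutrophil markers summed to 253 and 529 CPM, with S100a8 at 29.2 and 150 CPM and S100a9 at 35.4 and 263 CPM, while Mmp9 ran the other way at 157 and 67.0 CPM. In the opposite fibroblasts the epithelial markers summed to 157 and 491 CPM and the neutrophil markers to 269 and 416 CPM. The part of macrophage, epithelial and neutrophil transcripts in the class II and interferon values was not tested. The interferon median was -1.81 and the class I median -1.20 when only myofibroblasts without any Krt8 or Krt18 UMI were used, 71 AptCD4-LNT and 127 Untreated cells. Over all alternatives tried the interferon median lay between -2.31 and -1.75.

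**Figure D4:**
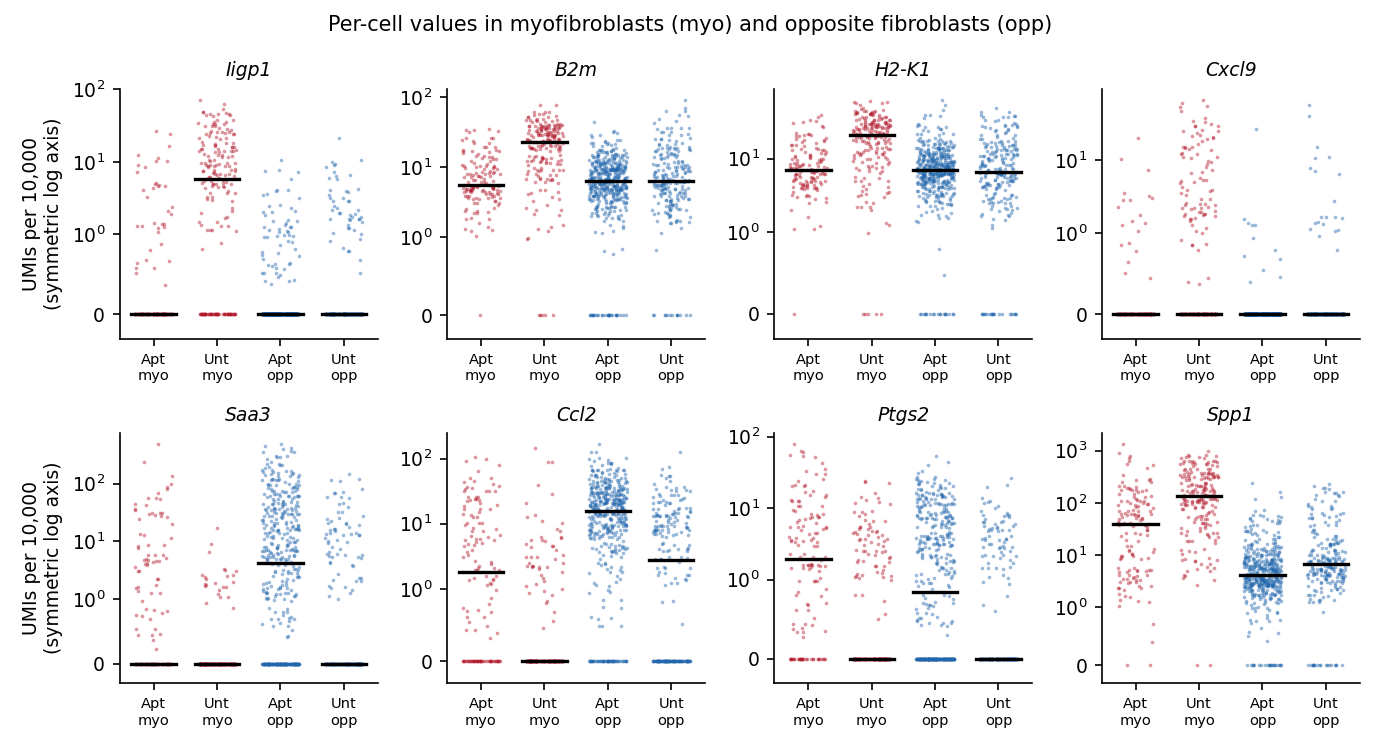
UMIs per 10000 in each cell (y, symmetric log axis) for 8 genes, in myofibroblasts (myo, red) and opposite fibroblasts (opp, blue) of the AptCD4-LNT (Apt) and Untreated (Unt) libraries, with a black bar at the median. The Untreated myofibroblasts lie above the other 3 sets for Iigp1, B2m and H2-K1, with medians of 5.73, 23.4 and 20.8.

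Inflammatory fibroblast genes were higher in the AptCD4-LNT myofibroblasts. Of 22 genes 15 were past 1.5-fold higher (8.11% of all genes were) and 1 lower, with a median of 1.13, and in the opposite fibroblasts 14 were higher and 0 lower, the median being 0.73. Saa3, an acute-phase apolipoprotein, was at 1210 and 35.4 CPM, a log2 ratio of 5.10 (4.71 to 5.50), and at 3112 and 896 CPM in the opposite fibroblasts. After thinning, 40 of 136 AptCD4-LNT (29.4%) and 10 of 186 Untreated (5.38%) myofibroblasts held it, so its median per cell was 0 in both. Il33, an alarmin of stromal nuclei, was at 159 and 25.9 CPM (2.62, 2.15 to 3.12). The monocyte attractants Ccl2 (1078 and 315 CPM, 1.78) and Ccl7 (699 and 221 CPM, 1.66), the neutrophil attractant Cxcl1 (828 and 259 CPM, 1.68) and Ptgs2, the inducible enzyme of prostaglandin synthesis (612 and 173 CPM, 1.82), were higher. A single cell gave 30.5% of the Ccl2 UMIs of the Untreated myofibroblasts. Cxcl14 was the exception, at 2260 and 6174 CPM (-1.45, -1.50 to -1.40), while in the opposite fibroblasts it was at 1076 and 1293 CPM. As given above, 14 of the 22 genes were lower in myofibroblasts than in opposite fibroblasts in both libraries. The opposite fibroblasts were a 4.35-fold higher share of cells in the AptCD4-LNT library. The part of their transcripts in these values was not tested.

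Immediate early and stress genes, which answer growth factors and cytokines but also the handling of tissue, were 10 of 12 higher and 0 lower, with a median of 0.81. Of all genes 8.11% were higher and 8.34% lower. In the opposite fibroblasts 2 were higher and 1 lower, the median being 0.02, where 11.7% of all genes were higher and 8.08% lower. The transcription factor genes Fos (2221 and 1345 CPM), Fosb (1108 and 495) and Egr1 (1342 and 760) were higher in AptCD4-LNT myofibroblasts, with log2 ratios of 0.72, 1.16 and 0.82. Hspa1a, an inducible heat shock chaperone with a near-identical copy Hspa1b, was at 152 and 28.4 CPM. Any difference in how the 2 tumour mixtures were handled cannot be told apart from the treatment.

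Outside the lists the largest ratio was that of Serpinb2, plasminogen activator inhibitor 2, at 276 and 1.90 CPM on 718 and 3 UMIs, a log2 ratio of 7.19 (5.63 to 9.47). Of the myofibroblasts 23 of 141 in the AptCD4-LNT and 1 of 203 in the Untreated library held it, and 222 of 452 and 1 of 235 opposite fibroblasts did, where it reached 964 CPM. Il1rl1, the receptor for IL-33, was at 189 and 25.9 CPM (2.87, 2.41 to 3.36), and in the opposite fibroblasts at 388 and 11.8 CPM. Tnfaip3, a brake on NF-kappaB signalling, was at 143 and 21.5 CPM, and Ptx3, a secreted pattern recognition protein, at 91.8 and 13.9 CPM. A single cell gave 29.3% of the Ptx3 UMIs of the AptCD4-LNT myofibroblasts. After thinning, 14 of 136 and 2 of 186 myofibroblasts held Ptx3, and in the opposite fibroblasts it was at 1370 and 1274 CPM. Within the AptCD4-LNT library, Serpinb2, Il1rl1 and Ptx3 were thus higher in the opposite fibroblasts than in the myofibroblasts. Between the libraries Ptx3 hardly differed in the opposite fibroblasts, with a log2 ratio of 0.10. The part of opposite fibroblasts in the myofibroblast values was not tested. The epidermal growth factor receptor ligand Ereg was at 115 and 27.2 CPM. Among the lower genes outside the lists, Arg1, the arginase of alternatively activated macrophages, was at 9.22 and 74.5 CPM, and H2-Ea, a class II chain, at 9.22 and 91.0 CPM.

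Contractile genes were level or lower in the AptCD4-LNT myofibroblasts. None of 17 was past 1.5-fold higher and 4 were lower, with a median of -0.14, where 8.11% of all genes were higher and 8.34% lower. The smooth muscle markers given above, Cnn1 and Actg2 among them, summed to 213 and 409 CPM and the pericyte markers to 224 and 370 CPM, and their part in these values was not tested. The 4 were Actg2, the enteric smooth muscle actin, at 22.7 and 152 CPM (-2.75, -3.18 to -2.33), the calponins Cnn1 (90.7 and 140 CPM) and Cnn3 (466 and 814 CPM), and Actb (-0.74). Actg2 UMIs were held by 14 AptCD4-LNT and 53 Untreated myofibroblasts. Its sequence is close to that of other actins, so its reads could be split with theirs. Tpm2 was at 631 and 648 CPM, Cald1, caldesmon, at 2091 and 2371 CPM, and Tagln2 at 1051 and 992 CPM, all within 1.5-fold.

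Among collagens 1 of 16 was higher (8.11% of all genes), 4 were lower (8.34% of all genes) and the median was 0.11. Col1a2 was at 15047 and 10226 CPM (0.56), Col12a1 had 0.44 and Col5a2 was at 3184 and 3073 CPM. The basement membrane chains Col4a1 (98.0 and 155 CPM) and Col4a2 (58.8 and 103 CPM), with Col8a1 (648 and 1049) and Col11a1 (23.4 and 53.1), were the 4 that were lower. Of 20 matricellular genes 3 were higher and 3 lower. Spp1 was at 10114 and 21603 CPM, a log2 ratio of -1.09 (-1.12 to -1.07), and at 696 and 1365 CPM in the opposite fibroblasts (-0.97). Its median per 10000 UMIs was 39.8 in AptCD4-LNT and 135 in Untreated myofibroblasts. Ccn2 was lower at 877 and 1425 CPM (-0.70). Eln, elastin, was higher at 142 and 41.7 CPM (1.77). Within the AptCD4-LNT myofibroblasts it was at 423 CPM in the cells led by Lrrc15, Crabp1 and Grem1 and at 50.1 CPM in the contractile-led ones.

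In the lists that follow, the counts stand against 8.11% of all genes higher and 8.34% lower. Proteases and inhibitors were 6 of 19 higher and 1 lower, with a median of 0.32. Mmp3 was at 1065 and 402 CPM (1.40), Mmp2, gelatinase A, at 618 and 378 CPM (0.71), and Mmp9, gelatinase B, at 157 and 67.0 CPM (1.23). Mmp13 was at 323 and 107 CPM (1.59), but among contractile-led cells alone the ratio was -0.28. The cells led by Lrrc15, Crabp1 and Grem1, which held 1244 and 590 CPM of it, made up 31.9% and 18.2% of the myofibroblasts. In the TGF-beta list 3 of 22 genes were higher and 4 lower, the median being 0.08. Tgfbi, a TGF-beta-induced adhesion protein, was at 30.7 and 83.4 CPM (-1.44). Smad7, an inhibitory Smad, was at 205 and 106 CPM (0.95), while the ligand Tgfb1 was at 179 and 171 CPM and Inhba at 1892 and 1476 CPM.

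In the retinoid list 1 of 11 genes was higher and 3 lower, with a median of -0.46, and Aldh1a2, the retinoic acid-synthesising dehydrogenase, was at 3.07 and 27.8 CPM. Growth factor genes were 5 of 14 higher and 2 lower, with Fgf7, a growth factor for epithelium, at 83.8 and 30.3 CPM and Pdgfa at 136 and 363 CPM (-1.42). Of the adventitial genes not used by the rule 6 of 20 were higher and 4 lower. Dcn, decorin, was at 955 and 360 CPM (1.41) and Lum at 931 and 401 CPM (1.22), and Ly6a, the stem cell antigen that interferon also induces, was at 146 and 526 CPM (-1.84). Among transcription factors 4 of 17 were higher and 2 lower, with Twist2, a mesenchymal repressor, at 147 and 36.6 CPM (2.0) and Runx1 at 500 and 569 CPM. Hypoxia genes were 1 of 14 higher and 2 lower, with a median of -0.27. In the list of Wnt and bone morphogenetic protein genes 2 of 11 were higher and 2 lower. The collagen-processing list had 0 of 16 higher and 1 lower.

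**Figure D5:**
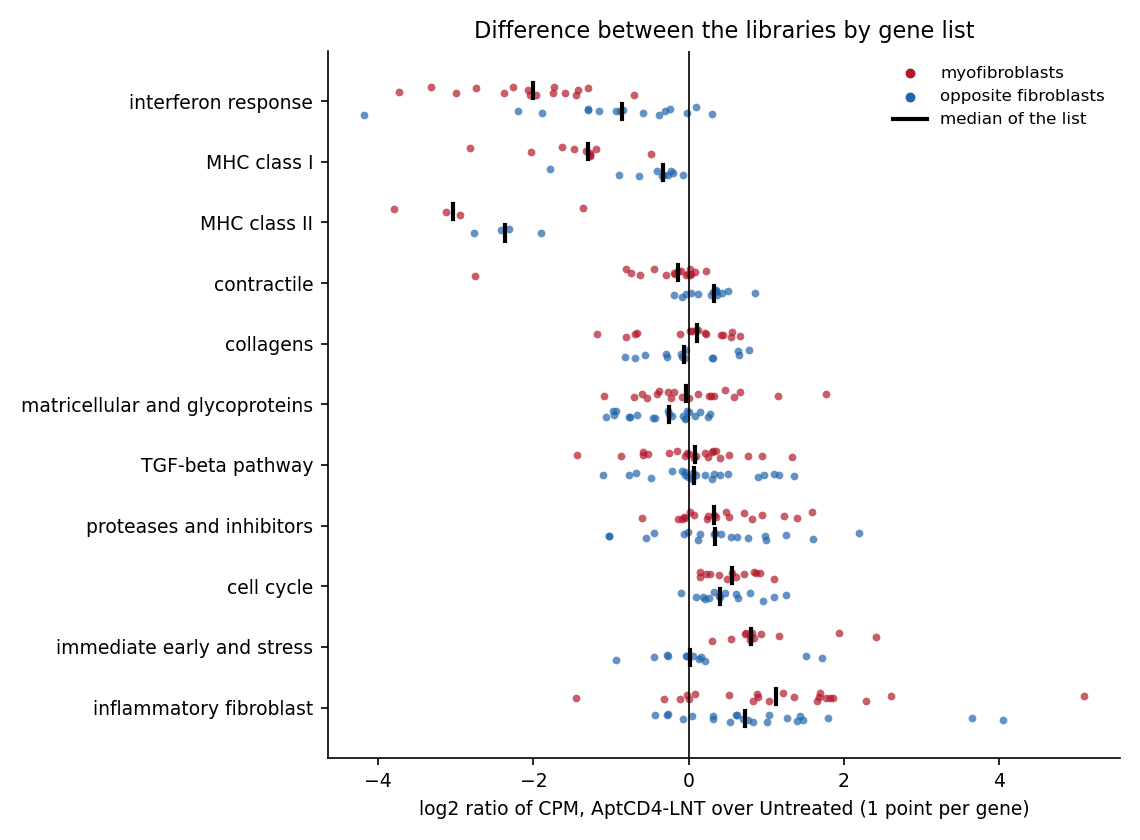
Log2 ratio of CPM, AptCD4-LNT over Untreated (x axis), of each gene of 11 lists (y axis) in myofibroblasts (red) and opposite fibroblasts (blue), with a black bar at each list's median. In myofibroblasts the interferon, class I and class II medians lie at -2.01, -1.30 and -3.04, and the inflammatory median at 1.13.

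Cell cycle genes were 6 of 13 higher and 0 lower in the AptCD4-LNT myofibroblasts, with a median of 0.56. Ube2c, a mitotic ubiquitin-conjugating enzyme, was at 150 and 79.6 CPM (0.92) and Birc5, survivin, at 94.5 and 57.5 CPM (0.72). Both turned in direction when cells with any Krt8 or Krt18 UMI were left out, to -0.22 and -0.051. After thinning, at least 2 UMIs over 8 cell cycle genes were seen in 16 of 136 (11.8%, 6.88 to 18.4%) AptCD4-LNT and 15 of 186 (8.06%, 4.58 to 13.0%) Untreated myofibroblasts, and in 7.54% and 4.21% of opposite fibroblasts. The intervals of the 2 libraries overlapped in both cell types. Unthinned, the shares were 29.1% and 17.7% of the myofibroblasts, which have 17189 and 6526 UMIs per cell at the median.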

How the data were processed

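Single-cell RNA sequencing of 1 AptCD4-LNT and 1 Untreated library was taken from the deposited matrices, which hold unnormalised UMI counts per gene and barcode, per the file headers. The deposited barcode and gene lists hold names. The submitters' processing notes list Cell Ranger 7.2.0 with GRCm39 as the build, and its settings are not given in the sources used here. Each matrix covers 55357 genes, and 0 columns belonged to no sample.

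Cells were filtered and divided as the report describes. UMIs were summed over each set of cells and divided by the total to give CPM. Ratios are on the log2 scale, with exact conditional binomial intervals, and shares have Clopper-Pearson intervals, both at 95%. They cover counting error only, and UMIs of 1 cell are not independent. A gene at 0 in a set was given a floor of 3 counts over that set. Genes with at least 50 UMIs over both libraries, or in each library for the comparison with the opposite fibroblasts, were compared, and a gene was called past 1.5-fold. Cells were thinned to 2000 UMIs with a fixed seed where shares of cells are given. Software was Python 3.11.15, numpy 2.4.6, scipy 1.17.1, pandas 2.3.3 and scanpy 1.11.5 (Scrublet). Sums with known ratios and counting error only were simulated for the library comparison. Intervals covered 95.9% of 7414 unchanged genes, and 94.8% of genes changed by 2-fold were called, with 3.91% of unchanged ones. Spread between cells or libraries was not simulated, so these shares are not error rates of the real comparison.

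The myofibroblasts, the 18 gene lists and the 9 marker lists were chosen with earlier results of these data known. Values of some list genes are not reported here. Named genes are the 10 markers with Col1a1 and Col3a1, of each list the 4 with the highest CPM and the 2 largest ratios in each direction, and outside the lists the 10 largest ratios in each direction with at least 100 UMIs, 50 CPM and an interval that leaves out 0. Others were chosen after their values were seen. These are all genes in the comparison within the myofibroblasts, the genes named only for marker or promoter counts, and Myl9, Tpm1, Tpm2, Col4a1, Col8a1, Col15a1, Spon1, Thbs1, Thbs2, Fbn1, Vcan, Postn, Cthrc1, Fap, Tgfb1, Tgfb2, Tgfb3, Tgfbr2, Cd34, Tnxb, Il6, Cxcl12, Ccl7, Ptgs2, Has2, Irf7, Igtp, Gbp2 and Fosb. Endothelial, bone and cartilage, and Schwann cell and fat cell markers summed to at most 15.4 CPM in the myofibroblasts of either library. Alternatives changed the doublet, cell, collagen, keratin and mural filters, the margin, depth, cell weights, scaling, the low-count filter and the markers of the split.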

Additional observations from a re-analysis of the deposited data

How the results depend on the processing

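No paired analysis was possible because each group is 1 library. Over all alternatives 667 of 740 list medians and 72 of 92 shares and counts moved by less than their counting interval. For a list median this is the median reach to either side over its genes, and for counts of genes the limit was 1.5 times. Of the gene values 6043 stayed within their interval and 1181 moved further. Another 9 were past 1.5-fold as reported and changed sign. Sign changes of smaller ratios were not counted apart. Between the libraries the interferon and class I medians moved by less than that reach under every alternative, from -2.31 to -1.75 and from -1.47 to -1.18. Filters set the gene counts. With at least 20 UMIs, 1018 genes were higher and 1222 lower between the libraries and 870 lower against the opposite fibroblasts. With at least 200 UMIs these were 181, 157 and 239, with 274 higher against the opposite fibroblasts. After thinning they were 173, 208 and 242, with 253 higher, since fewer UMIs leave fewer genes to compare.

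Without any Krt8 or Krt18 UMI, the immediate early median was 1.06, the inflammatory median 1.65 and the share of all cells 0.802% and 0.635%. Thinning gave an inflammatory median of 1.73 and shares of all cells of 2.02% and 1.28%. A collagen threshold of 200 gave an immediate early median of 1.01 and an Untreated share of 0.805%. Without mural UMIs the AptCD4-LNT share of fibroblasts was 27.8%, and with a margin of 5 UMIs the Untreated one was 38.9%. The adventitial median against the opposite fibroblasts was -2.24 in the AptCD4-LNT library on the 3-marker split and -2.47 in the Untreated one with cells weighted equally.

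Alternatives chosen after seeing the data were contractile-led cells only, with an immediate early median of 0.51, and cells with 1 marker sum at least 5 times the other. The latter gave shares of 1.20% of cells and 17.8% of fibroblasts in the AptCD4-LNT library, an adventitial median of -2.19 and a contractile median of 1.06.

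Ratios past 1.5-fold as reported that changed sign were, between the libraries, Birc5 (-0.051) and Ube2c (-0.22) without keratin UMIs, and Col18a1 (-0.49) and Mmp13 (-0.28) in contractile-led cells. Against the opposite fibroblasts they were Cxcl10 in the AptCD4-LNT library (0.27) and Egln3 (-0.075) and Tgm2 (-0.24) in the Untreated one with cells weighted equally, Tgm2 (-0.16) without keratin UMIs, and Top2a (-0.023) in the AptCD4-LNT library on the 3-marker split. The cause was not tested. Depth was lower in the Untreated library, with 1582888 against 2602078 UMIs in the myofibroblasts and 1352041 against 4731111 in the opposite fibroblasts.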
